A study of Mus musculus with 15 samples.

Results

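Insulin-like growth factors (IGFs) circulate bound to a family of carrier proteins, and the genes of 6 high-affinity IGF-binding proteins (Igfbp1 to Igfbp6), the low-affinity binder Igfbp7, the acid-labile subunit Igfals and the type 1 IGF receptor Igf1r are described here in mouse liver tumours and normal liver. The 9 genes were taken by symbol from a table of 23284 gene symbols, and all 9 were found and passed the filter on low counts in each of 3 comparisons. The 6 Hmgb1-deleted tumours came from Hmgb1 fl/fl mice that express Cre recombinase from the albumin promoter, the 6 floxed tumours from Hmgb1 fl/fl mice listed as controls, and the 3 normal livers from C57Bl/6 control mice. Both groups of tumour-bearing mice had received the mutagen diethylnitrosamine (DEN, 25 mg/kg on day 15 after birth) and then the liver toxin carbon tetrachloride (CCl4, 0.5 µl/g each week for 15 weeks from week 8). Hmgb1 encodes a DNA-binding chromatin protein that is also an extracellular alarm signal, and the series asks about its part in liver tumour formation.

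The model has limits that touch every value below. Albumin-driven Cre acts in hepatocytes and bile duct cells, so vascular, stellate and immune cells of the Hmgb1-deleted tumours keep the gene. The labels name no treatment for the normal livers, and no sample is tumour-free liver of treated mice, so DEN and CCl4 exposure, strain and being a tumour cannot be told apart in the comparisons with normal liver. Strain of the floxed mice, litter and batch are not labelled, nor whether several tumours came from 1 mouse, and the p-values therefore reflect only how much these samples vary. Sex, age and feeding state at collection entered no fit. In bulk tissue, fewer cells of a type and less RNA per cell cannot be told apart.

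The liver makes most of the IGF1 in blood. There, most IGF is held in a complex of IGF, IGFBP3 or IGFBP5, and the acid-labile subunit, which keeps the hormone in the circulation. The smaller binding proteins, among them IGFBP1, leave the bloodstream more easily. Growth hormone raises Igf1 and Igfals in hepatocytes through the transcription factor STAT5, whereas insulin represses Igfbp1 by excluding FOXO1 from the nucleus. IGF1R is a receptor tyrosine kinase that adult hepatocytes carry at low density, and IGF-binding proteins limit its access to ligand.

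Levels are given in CPM, read counts scaled to a common library total, and 18973246 to 30929442 counts were assigned to genes per library. At that depth a gene with 0 counts could still hold up to 0.11 to 0.169 CPM, for counting error only. Hmgb1 itself averaged 14.8 CPM ± 2.76 in Hmgb1-deleted tumours (SD, n = 6), 27.9 CPM ± 3.36 in floxed tumours (SD, n = 6) and 23.9 CPM ± 6.07 in normal livers (SD, n = 3). The deleted tumours lay below both other groups without overlap, with a log2 fold change of -0.90 ± 0.14 (SE) against floxed tumours and an adjusted p of 0.00509 in edgeR. All 10 hepatocyte markers were detected in every library, with summed levels of 106797 to 238597 CPM in Hmgb1-deleted tumours, 174557 to 395029 CPM in floxed tumours and 146654 to 178038 CPM in normal livers. The lowest sums were those of Hmgb1-deleted tumours 2 and 5. Floxed tumour 5 stood apart in another way: 10 of 12 stellate cell and fibroblast markers were highest there of all 15 libraries, with a summed level of 1869.8 CPM against 289 to 448 CPM in the other floxed tumours. All 8 proliferation markers rose in either tumour group against normal liver. Over all tested genes, 18.1% rose in Hmgb1-deleted and 24.9% in floxed tumours.

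The promoter sequences of 3 of the genes are shown because Igfbp1 and Igfals changed in opposite directions between the tumour groups, and because Igfbp3 is the neighbour of Igfbp1 in the genome. The windows run from 250 bases before to 50 bases after the start of the gene, 5′ to 3′ on the gene's strand, from RefSeq on the build GRCm38.p6, which differs from the build of the counts (mm9). They are Igfbp1 at chr11:7197537-7197836 (plus strand), Igfbp3 at chr11:7213874-7214173 (minus strand) and Igfals at chr17:24877981-24878280 (plus strand, the one of 3 listed windows nearest to the start of the coding transcript). Capitals mark matches to the motifs searched.
Igfbp1: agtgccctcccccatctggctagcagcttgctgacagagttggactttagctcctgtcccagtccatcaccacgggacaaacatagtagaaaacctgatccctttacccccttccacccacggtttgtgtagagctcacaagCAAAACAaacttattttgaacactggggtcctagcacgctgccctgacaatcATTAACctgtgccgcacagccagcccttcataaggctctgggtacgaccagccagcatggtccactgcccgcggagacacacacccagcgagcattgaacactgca
Igfbp3: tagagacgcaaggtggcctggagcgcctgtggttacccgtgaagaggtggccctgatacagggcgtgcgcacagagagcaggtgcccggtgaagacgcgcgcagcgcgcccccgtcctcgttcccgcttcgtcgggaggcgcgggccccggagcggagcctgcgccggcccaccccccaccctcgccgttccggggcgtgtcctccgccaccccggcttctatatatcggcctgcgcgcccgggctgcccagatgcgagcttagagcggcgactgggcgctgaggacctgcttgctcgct
Igfals: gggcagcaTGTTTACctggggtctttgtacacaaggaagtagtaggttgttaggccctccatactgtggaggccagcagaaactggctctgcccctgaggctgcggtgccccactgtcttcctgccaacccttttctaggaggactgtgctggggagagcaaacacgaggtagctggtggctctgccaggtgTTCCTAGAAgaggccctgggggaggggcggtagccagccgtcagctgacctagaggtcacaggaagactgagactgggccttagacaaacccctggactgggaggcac
The search covered both strands for CAAAACA (the core of the insulin response element known from the IGFBP1 promoter), GTAAACA (a FOXO consensus), GTTAAT (a part of the site of the hepatocyte factor HNF1) and TTCNNNGAA (the palindromic STAT5 site). The Igfbp1 window held CAAAACA at position -108 and, on the other strand, GTTAAT at position -56, where it reads ATTAAC. The Igfals window held GTAAACA on the other strand at position -242 and TTCNNNGAA at position -58, as TTCCTAGAA. No matches overlapped, the Igfbp3 window held none, and neither did the windows of Igfbp2, Igfbp4, Igfbp5, Igfbp6, Igfbp7 and Igf1r. Of 32851 windows of the same length over all genes, 6.28% held CAAAACA, 3.65% GTAAACA, 7.1% GTTAAT and 8.3% TTCNNNGAA, and each motif was in 1 of the 9 windows here. Such a match describes the letters and shows no binding. In the annotation of the same build, Igfbp1 (plus strand) and Igfbp3 (minus strand) are next to each other on chromosome 11 with their 3′ ends facing, and Igfbp2 (plus strand) and Igfbp5 (minus strand) lie in the same way on chromosome 1.

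Between the tumour groups, Hmgb1-deleted tumours had less Igfbp1 mRNA and more Igfals mRNA than floxed tumours, and the other 7 genes did not pass the test. Passing means an adjusted p under 0.05 in edgeR's quasi-likelihood test over all genes, and 7.78% of 13433 tested genes passed in this comparison (4.45% higher, 3.33% lower). Of the 9 genes, 2 passed, 1 higher and 1 lower, and the same 2 had groups that did not overlap, as 4.93% of all tested genes did. With library totals in place of TMM factors, 79.3% of the calls over all genes were higher instead of 57.2%, and the median over all genes shifted to 0.20. The median log2 fold change was -0.43 over the 9 genes and 0.02 over all tested genes.

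Against normal liver, floxed tumours had more Igfbp1, Igfbp3, Igfbp6 and Igfbp7 mRNA and less Igfals mRNA. So 5 of 9 genes passed where 48.7% of 13784 tested genes did (24.9% higher, 23.8% lower), which is near the background. These 5 genes were also the ones whose groups did not overlap, against 46.3% of all tested genes. In Hmgb1-deleted tumours against normal liver, 2 of 9 genes passed (Igfbp7 higher, Igfals lower), against 34.7% of 13784 tested genes (18.1% higher, 16.6% lower), and those 2 were again the non-overlapping ones, against 37.6% of all tested genes. The medians over the 9 genes were 0.48 (floxed tumours against normal liver) and 0.04 (Hmgb1-deleted tumours against normal liver), and over all tested genes they were 0.06 in the first of these and 0.05 in the second. Upper-quartile scaling shifted them to 0.23 in the first and 0.20 in the second and library totals to 0.33 in the second, and the direction of calls over all genes moved with them. In floxed tumours 63.5% of calls were higher with upper-quartile scaling instead of 51.2%, and in Hmgb1-deleted tumours 68.2% with upper-quartile scaling and 73.7% with library totals instead of 52.1%. These comparisons share samples in pairs, so they are not independent of each other.

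**Figure D1:**
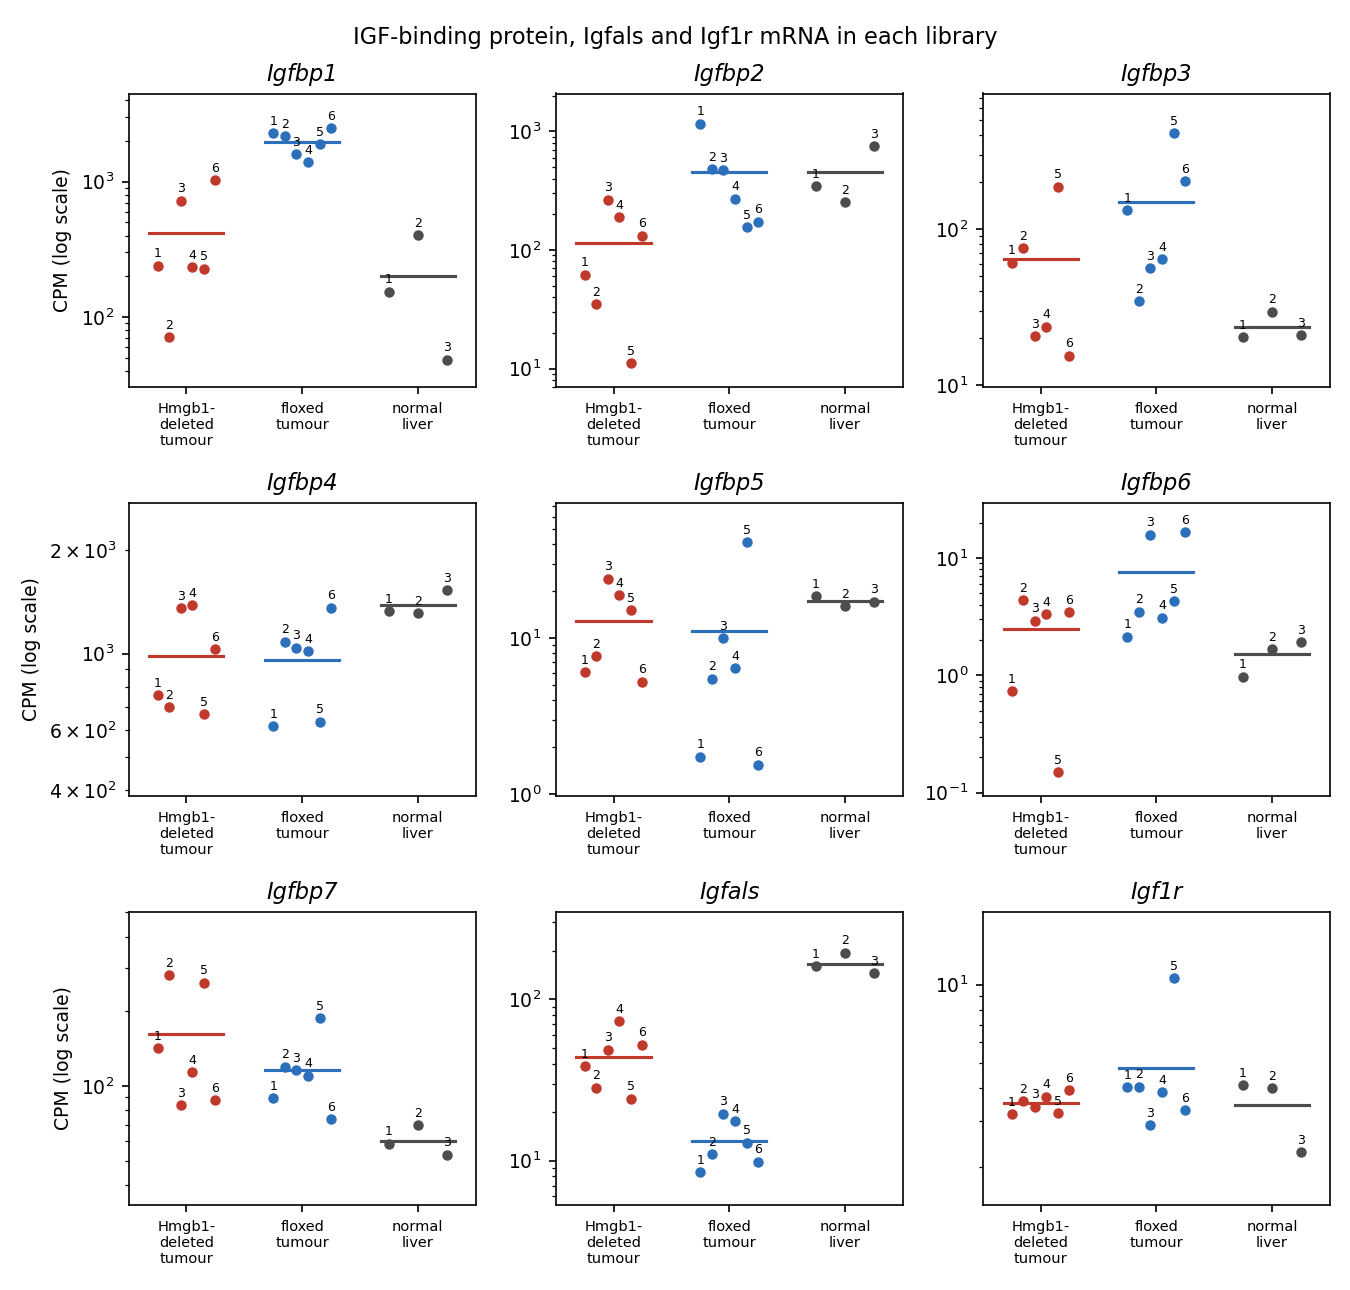
Level of each of the 9 genes in every library, in CPM on a log axis with its own range per gene; points are libraries numbered as in the labels, and lines are group means (6 Hmgb1-deleted tumours, 6 floxed tumours, 3 normal livers). All 6 floxed tumours lie above every other library for Igfbp1 (1386 to 2478 CPM) and below every other library for Igfals (8.45 to 19.6 CPM).

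The plot of levels by library shows the groups side by side, and the genes are taken below by role: the hepatocyte-derived small binding proteins, the carriers of the circulating complex, the remaining binding proteins and the receptor.

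Igfbp1 encodes a small binding protein that hepatocytes secrete within hours of fasting or stress and that insulin shuts off. Its lowest, median and highest levels were 71.4, 237 and 1026 CPM in Hmgb1-deleted tumours and 1386, 2029 and 2478 CPM in floxed tumours, and the normal livers were at 154, 403 and 48.6 CPM. Every floxed tumour lay above every library of the other groups, while Hmgb1-deleted tumours and normal livers overlapped. Against floxed tumours, Hmgb1-deleted tumours lay lower by -2.20 ± 0.53 (SE) on the log2 scale (adjusted p = 0.0243), and floxed tumours were higher than normal liver by 3.28 ± 0.59 (adjusted p = 0.00129). Hmgb1-deleted tumours did not differ detectably from normal liver at 1.07 ± 0.86 (adjusted p = 0.349), or at 2.07 without normal liver 2 (adjusted p = 0.174). The spread was much wider in the deleted tumours, where the highest level was 14.4 times the lowest, than in floxed tumours, where it was 1.79 times the lowest. Within the deleted group, tumours 6 and 3 held the highest levels (1026 and 723 CPM), tumours 1, 4 and 5 stood together at 239.6, 234 and 228 CPM, and tumour 2 was lowest.

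Leaving out Hmgb1-deleted tumour 4 ended the Igfbp1 call between tumour groups, at -2.11 with an adjusted p of 0.0554. So did leaving out Hmgb1-deleted tumours 3 and 4 together (-2.35, adjusted p = 0.0674), over a range of 0.000135 to 0.0674 across the 24 alternatives, of which 22 kept the call. Without Hmgb1-deleted tumours 2 and 5, which have the lowest hepatocyte marker sums, the difference was -1.83 (adjusted p = 0.0283), and without 3, 4 and 6 it was -3.46 (adjusted p = 0.00459). Tumours 2 and 5 also held the lowest Igfbp1 levels of the deleted group, and tumours 3 and 6 the highest. Leaving out 2 and 5 therefore raises the group, and leaving out 3, 4 and 6 lowers it. Against normal liver, the higher Igfbp1 of floxed tumours passed under all 19 alternatives, at 2.80 to 4.28, its upper end without normal liver 2, the highest of the 3.

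Igfbp2 encodes a binding protein made by fetal and adult liver. Levels at the lowest, median and highest library were 11.1, 96.8 and 265 CPM in Hmgb1-deleted tumours and 156, 372 and 1161 CPM in floxed tumours, and normal livers were at 346, 253 and 755 CPM. The tumour groups overlapped, since the 2 highest deleted tumours (3 and 4, at 265 and 188 CPM) lay above the 2 lowest floxed tumours (5 and 6, at 156 and 173 CPM). The log2 differences were -1.95 ± 0.70 for Hmgb1-deleted against floxed tumours (adjusted p = 0.108), -0.01 ± 0.61 for floxed tumours against normal liver (adjusted p = 0.992) and -1.96 ± 0.77 for deleted tumours against normal liver (adjusted p = 0.0735). None passed, though the means were 116 CPM in deleted tumours, 453 CPM in floxed tumours and 451 CPM in normal livers. The lower level in deleted tumours passed with DESeq2 (adjusted p = 0.0181 against floxed tumours and 0.0235 against normal liver) and without Hmgb1-deleted tumours 3, 4 and 6 (-3.65, adjusted p = 0.0324, against floxed tumours and -3.60, adjusted p = 0.0063, against normal liver). Without Hmgb1-deleted tumour 3 alone, it passed against normal liver (-2.39, adjusted p = 0.0395), and without normal liver 3 that difference was -1.37 (adjusted p = 0.274). Hmgb1-deleted tumours 3, 4 and 6 held the highest Igfbp2 levels of their group (265, 188 and 132 CPM), so leaving them out lowers the group. Adjusted p ran from 0.0181 to 0.228 over 24 alternatives against floxed tumours and from 0.0063 to 0.274 over 22 against normal liver.

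Igfals encodes the acid-labile subunit, the hepatocyte-made protein that locks IGF and IGFBP3 into the large circulating complex. Lowest, median and highest levels were 24.2, 43.8 and 73 CPM in Hmgb1-deleted tumours and 8.45, 12 and 19.6 CPM in floxed tumours, and normal livers were at 161, 195 and 145 CPM. The 3 groups did not overlap, and their order was floxed tumours, Hmgb1-deleted tumours, normal liver from low to high. Hmgb1-deleted tumours were higher than floxed tumours by 1.75 ± 0.28 on the log2 scale (adjusted p = 0.00544). Floxed tumours lay below normal liver by -3.65 ± 0.26 (adjusted p = 4.99e-06) and Hmgb1-deleted tumours by -1.91 ± 0.29 (adjusted p = 0.00248). All 3 calls held under every alternative tried (24, 19 and 22). Leaving out Hmgb1-deleted tumours 3, 4 and 6 lowered the difference between tumour groups to 1.19 (adjusted p = 0.0333). Those tumours held the highest Igfals levels of their group, so leaving them out lowers the group.

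Igfbp3 encodes the main IGF carrier of blood, which in rat liver is made largely by non-parenchymal cells. Its lowest, median and highest levels were 15.5, 42.4 and 188 CPM in Hmgb1-deleted tumours and 34.7, 98.7 and 413 CPM in floxed tumours, and normal livers were at 20.3, 29.6 and 21 CPM. Floxed tumours all lay above normal liver, by 2.68 ± 0.77 on the log2 scale (adjusted p = 0.0159), and the deleted tumours overlapped both other groups. Deleted tumours 6, 3 and 4 were at 15.5, 20.7 and 23.8 CPM, within or below the range of normal livers, and tumours 1, 2 and 5 were at 61, 75.7 and 188 CPM. The difference between tumour groups was -1.19 ± 0.71 (adjusted p = 0.322), and deleted tumours stood against normal liver at 1.47 ± 0.78 (adjusted p = 0.163).

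Floxed tumour 5 held the most Igfbp3 (413 CPM) and the highest stellate and fibroblast marker sum. Without it the floxed tumours remained above normal liver, at 2.06 (adjusted p = 0.0143), and the difference between tumour groups was -0.59 (adjusted p = 0.636). Without Hmgb1-deleted tumour 5, the difference between tumour groups was -1.90 (adjusted p = 0.11), and deleted tumours lay 0.77 above normal liver (adjusted p = 0.289). The rise in floxed tumours missed the threshold without normal liver 1 (adjusted p = 0.0647) or normal liver 3 (adjusted p = 0.0591), over a range of 0.00139 to 0.0647 across 19 alternatives. Against normal liver, Hmgb1-deleted tumours passed for Igfbp3 without tumours 3, 4 and 6 (2.24, adjusted p = 0.00671, in a range of 0.00671 to 0.555). The tumours left out there held the lowest Igfbp3 levels of the deleted group, so leaving them out raises the group.

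Igfbp5 encodes the other binding protein that can join the complex with the acid-labile subunit, and it is also found in extracellular matrix. Igfbp5 had lowest, median and highest levels of 5.25, 11.4 and 24 CPM in Hmgb1-deleted tumours and 1.55, 5.98 and 41.1 CPM in floxed tumours, and normal livers were close together at 18.5, 16 and 17.1 CPM. All floxed tumours other than tumour 5 lay below every normal liver, and deleted tumours lay on both sides. The log2 differences were 0.24 ± 0.71 for Hmgb1-deleted against floxed tumours (adjusted p = 0.883), -0.62 ± 0.86 for floxed tumours against normal liver (adjusted p = 0.57) and -0.42 ± 0.45 for deleted tumours against normal liver (adjusted p = 0.487). Without floxed tumour 5, floxed tumours were lower than normal liver by -1.77 (adjusted p = 0.0205), and Hmgb1-deleted tumours lay 1.36 above floxed tumours (adjusted p = 0.16). Voom with sample weights, which gives less weight to libraries that stand apart, also called the fall against normal liver (-1.52, adjusted p = 0.00815, in a range of 0.00815 to 0.82 over 19 alternatives).

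Igfbp4 encodes a binding protein that inhibits IGF action until the protease PAPPA cleaves it. Its lowest, median and highest levels were 666, 894 and 1383 CPM in Hmgb1-deleted tumours and 614, 1029 and 1360.1 CPM in floxed tumours, and normal livers were at 1327, 1310.4 and 1532 CPM. The tumour groups covered nearly the same range, and the highest tumours of either reached the normal livers. The log2 differences were 0.05 ± 0.27 for Hmgb1-deleted against floxed tumours (adjusted p = 0.938), -0.53 ± 0.27 for floxed tumours against normal liver (adjusted p = 0.122) and -0.49 ± 0.28 for deleted tumours against normal liver (adjusted p = 0.191). Without floxed tumour 6, floxed tumours passed as lower than normal liver (-0.68, adjusted p = 0.0471, in a range of 0.0361 to 0.266 over 19 alternatives). Without Hmgb1-deleted tumours 3, 4 and 6, the remaining deleted tumours passed as lower than normal liver as well (-0.93, adjusted p = 0.0032, in a range of 0.0032 to 0.393 over 22). The tumours left out there held the highest Igfbp4 levels of the deleted group (1354, 1383 and 1031 CPM), so leaving them out lowers the group.

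Igfbp6 encodes the binding protein with a preference for IGF2. Igfbp6 had lowest, median and highest levels of 0.149, 3.13 and 4.38 CPM in Hmgb1-deleted tumours and 2.14, 3.9 and 16.5 CPM in floxed tumours, and normal livers were at 0.975, 1.67 and 1.92 CPM. Floxed tumours 3 and 6 (15.8 and 16.5 CPM) stood well above the other floxed tumours, and the lowest value, in Hmgb1-deleted tumour 5, rested on 4 counts (exact Poisson 95% interval 1.09 to 10.2 counts, counting error only). Floxed tumours were higher than normal liver by 2.31 ± 0.75 (adjusted p = 0.0269). Hmgb1-deleted tumours did not differ detectably from floxed tumours (-1.59 ± 0.71, adjusted p = 0.191) or from normal liver (0.73 ± 0.79, adjusted p = 0.489). The rise in floxed tumours missed the threshold whenever 1 normal liver was left out (adjusted p = 0.104, 0.0787 and 0.0645 without livers 1, 2 and 3, in a range of 0.00126 to 0.104 over 19 alternatives).

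Igfbp7 encodes a secreted protein that binds IGFs weakly, binds insulin, and is abundant around blood vessels. Levels at the lowest, median and highest library were 83.8, 128 and 280.2 CPM in Hmgb1-deleted tumours and 73.6, 113 and 188 CPM in floxed tumours, and normal livers were at 58.6, 69.5 and 53 CPM. Every tumour of either group lay above every normal liver. Floxed tumours were higher than normal liver by 0.95 ± 0.27 (adjusted p = 0.0151), and Hmgb1-deleted tumours by 1.45 ± 0.45 (adjusted p = 0.0332). The tumour groups overlapped and did not differ detectably (0.51 ± 0.34, adjusted p = 0.387). The highest levels were in Hmgb1-deleted tumours 2 and 5 (280.2 and 261 CPM). Their summed endothelial markers, 232 and 273 CPM over 12 genes, were the lowest of all 15 libraries, with normal liver 3 next at 274 CPM. Each of the 2 tumours was lowest of all libraries for only 3 of the 12 markers. Against normal liver, 3 of the 12 passed as higher in Hmgb1-deleted tumours and 0 as lower. Over all tested genes those shares were 18.1% and 16.6%. Floxed tumour 5, the highest of its group for Igfbp7 at 188 CPM, had the highest endothelial sum, 687 CPM. The part of endothelial RNA in these Igfbp7 levels was not tested.

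Without Hmgb1-deleted tumours 2 and 5, the deleted tumours were still above normal liver for Igfbp7, by 0.83 (adjusted p = 0.0203). Without floxed tumour 5, floxed tumours were above it by 0.76 (adjusted p = 0.00751). In Hmgb1-deleted tumours the call was lost whenever 1 normal liver was left out (adjusted p = 0.11, 0.0845 and 0.106 without livers 1, 2 and 3, in a range of 0.00147 to 0.11 over 22 alternatives). In floxed tumours it was lost without liver 1 or 3 (adjusted p = 0.0602 and 0.0665) and in the fit of all 15 samples (adjusted p = 0.0686), in a range of 0.00024 to 0.0686 over 19.

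Igf1r encodes the receptor through which IGF1 and IGF2 signal. Its lowest, median and highest levels were 3.18, 3.48 and 3.94 CPM in Hmgb1-deleted tumours and 2.88, 3.94 and 10.6 CPM in floxed tumours, and normal livers were at 4.1, 3.99 and 2.27 CPM. Apart from floxed tumour 5, all libraries lay within 2.27 to 4.1 CPM, and the groups overlapped. The log2 differences were -0.43 ± 0.29 for Hmgb1-deleted against floxed tumours (adjusted p = 0.404), 0.48 ± 0.43 for floxed tumours against normal liver (adjusted p = 0.377) and 0.04 ± 0.22 for deleted tumours against normal liver (adjusted p = 0.907). No alternative brought Igf1r past the threshold, and without floxed tumour 5 the first difference was -0.03 (adjusted p = 0.942) and the second 0.07 (adjusted p = 0.835).

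**Figure D2:**
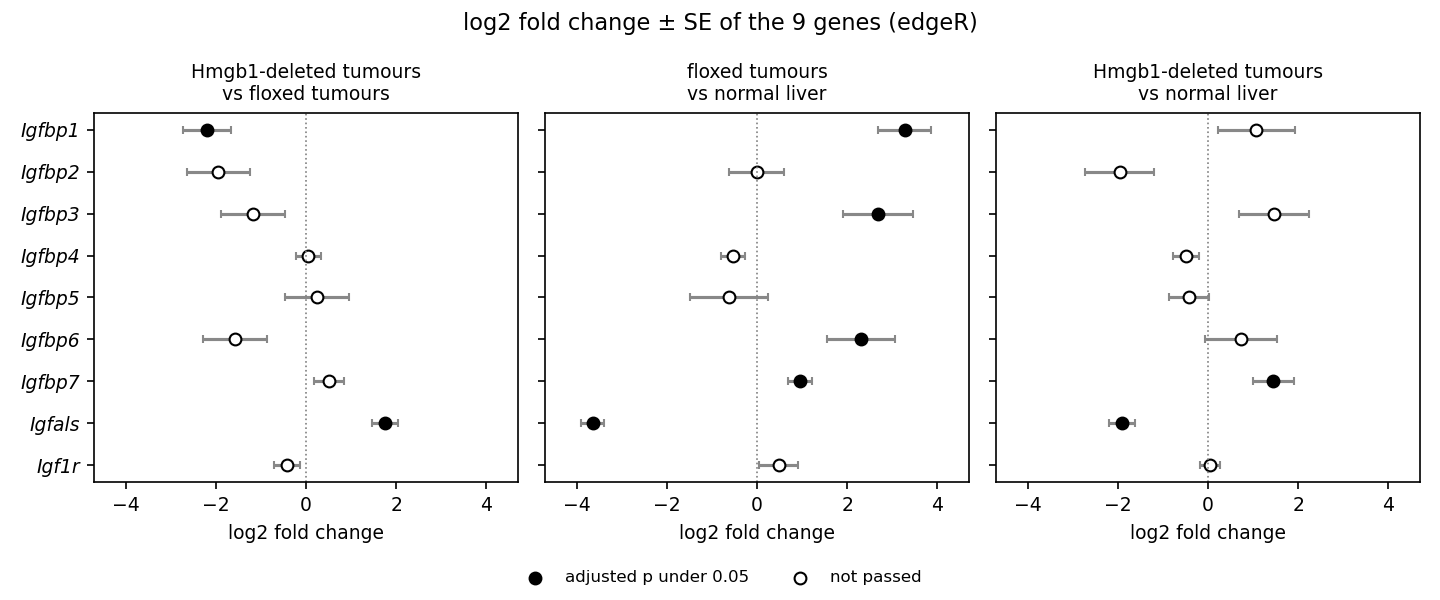
Log2 fold change ± SE of the 9 genes in the 3 comparisons, with the first-named group over the second; filled points passed at an adjusted p under 0.05 in edgeR and open points did not. Igfbp1 and Igfals are the filled points between the tumour groups, at -2.20 and 1.75.

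The plot of fold changes sets the 3 comparisons side by side and shows the width of the errors of Igfbp2, Igfbp3, Igfbp5 and Igfbp6, whose SE reached 0.70 or more between the tumour groups.

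To compare levels between the binding proteins, CPM was divided by the transcript length in kilobases. Summed over Igfbp1 to Igfbp7, the level per length was 526 to 1126 CPM per kb in Hmgb1-deleted tumours, 1504 to 2673 CPM per kb in floxed tumours and 773 to 1067 CPM per kb in normal livers, so the floxed tumours stood above both other groups without overlap. Igfbp1 made up 30.6% ± 18.0 of that sum in Hmgb1-deleted tumours (SD, n = 6), 62.8% ± 5.94 in floxed tumours (SD, n = 6) and 15.4% ± 13.8 in normal livers (SD, n = 3). Its own level per length averaged 276 CPM per kb in Hmgb1-deleted tumours, 1288 in floxed tumours and 132 in normal livers. The higher sum of floxed tumours therefore lay largely in Igfbp1. The shares of Igfbp4 were 33.5% ± 7.97 in Hmgb1-deleted tumours, 12.7% ± 4.42 in floxed tumours and 40.5% ± 3.84 in normal livers. Shares of a sum are tied to each other: the level of Igfbp4 per length was 256 CPM per kb in Hmgb1-deleted and 250.1 CPM per kb in floxed tumours, so its smaller share in floxed tumours stands beside a larger Igfbp1 level.

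The most abundant binding protein mRNA per length was Igfbp1 in all 6 floxed tumours. In Hmgb1-deleted tumours it was Igfbp1 in tumours 3 and 6, Igfbp4 in tumours 1 and 4, and Igfbp7 in tumours 2 and 5. In normal livers it was Igfbp4 in livers 1 and 2 and Igfbp2 in liver 3. Igfbp7 reached 44.4% of the sum in the deleted tumour with the highest share, against at most 8.4% in floxed tumours and 6.63% in normal livers. Igfbp3 averaged 4.26% in Hmgb1-deleted tumours, 3.1% in floxed tumours and 1.1% in normal livers, and Igfbp5 and Igfbp6 stayed under 1% in every library. With coding length in place of transcript length, chosen after seeing the data, Igfbp1 still led in all 6 floxed tumours (53.4%), but Igfbp4 led in all 6 deleted tumours (59.3%) and all 3 normal livers (68.2%).

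**Figure D3:**
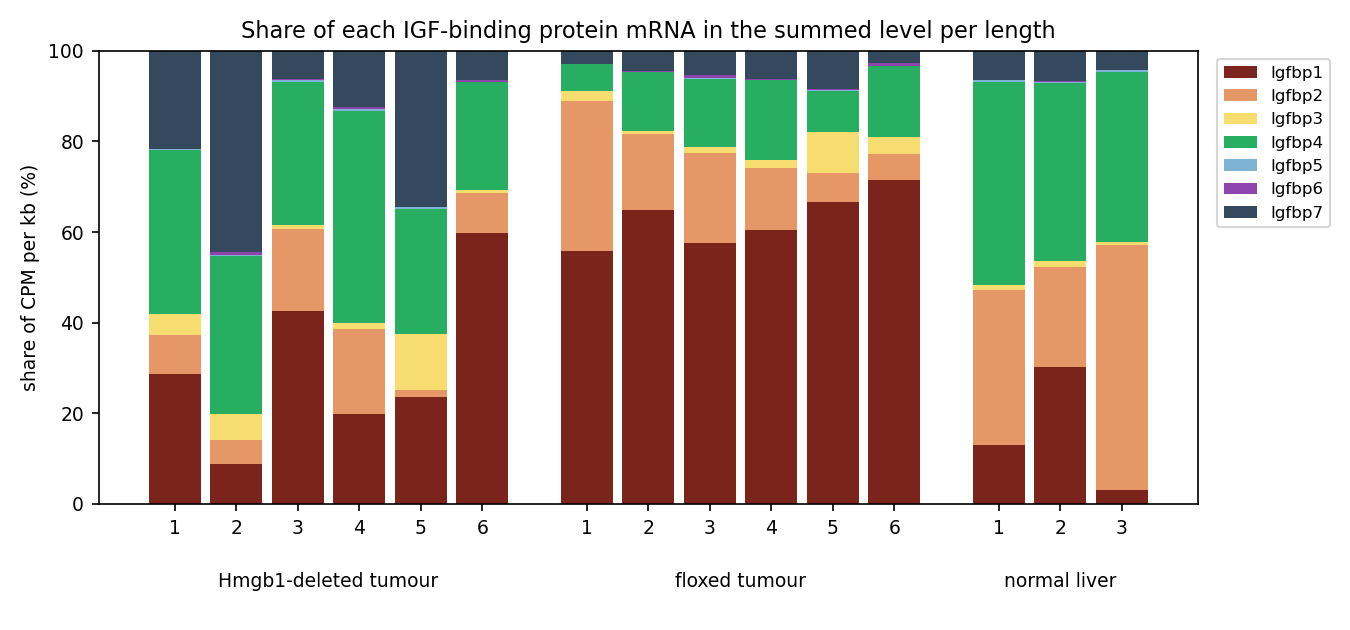
Share of each of the 7 binding protein mRNAs in their summed level per transcript length (percent of CPM per kb), with 1 bar per library. Igfbp1 takes 55.8% to 71.5% of the bar in floxed tumours and 8.9% to 59.7% in Hmgb1-deleted tumours.

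The bars of shares also show how unlike the Hmgb1-deleted tumours were among themselves. Tumours 2 and 5 held the lowest Igfbp2, Igfbp4 and Igfals levels of the deleted group and the highest Igfbp3 and Igfbp7 levels. Tumours 3, 4 and 6 held the highest Igfals (48.8, 73 and 52.3 CPM) and Igfbp4 levels of the group and the lowest Igfbp3 levels. They did not form 1 pattern for Igfbp1, since tumour 4 was at 234 CPM and tumours 3 and 6 at 723 and 1026 CPM. The hepatocyte marker sums were 106797 and 130143 CPM in tumours 2 and 5 and 170620 to 238597 CPM in the other deleted tumours, with none of the 10 markers at 0. The cholangiocyte markers (7 genes) and the proliferation markers (8 genes) also differed within the group. Cholangiocyte sums were 987, 6166 and 1182 CPM in tumours 1, 2 and 5 and 223 to 414 CPM in tumours 3, 4 and 6, against 76.2 to 1789.7 CPM in floxed tumours and 88.8 to 102 CPM in normal livers. Proliferation sums were 156, 132 and 163 CPM in tumours 1, 2 and 5 and 29.8 to 47.8 CPM in tumours 3, 4 and 6, against 22.9 to 118 CPM in floxed tumours and 7.24 to 8.88 CPM in normal livers. The part of hepatocyte, cholangiocyte and proliferating cell RNA in the levels of the deleted tumours was not tested.

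Among floxed tumours, library 5 held the highest Igfbp3, Igfbp5, Igfbp7 and Igf1r levels and the lowest Igfbp2 level. Its stellate and fibroblast markers summed to 1869.8 CPM, with 0 of 12 markers undetected, and its endothelial markers to 687 CPM against 304 to 447 CPM in the other floxed tumours, with 9 of 12 highest there of all libraries. Over the groups, the stellate and fibroblast sum was 296 to 622 CPM in Hmgb1-deleted tumours, 289 to 1869.8 CPM in floxed tumours and 299.9 to 409 CPM in normal livers. None of the 12 markers passed between the tumour groups, where 7.78% of all tested genes did. The part of stellate, fibroblast and endothelial RNA in the levels of floxed tumour 5 was not tested.

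**Figure D4:**
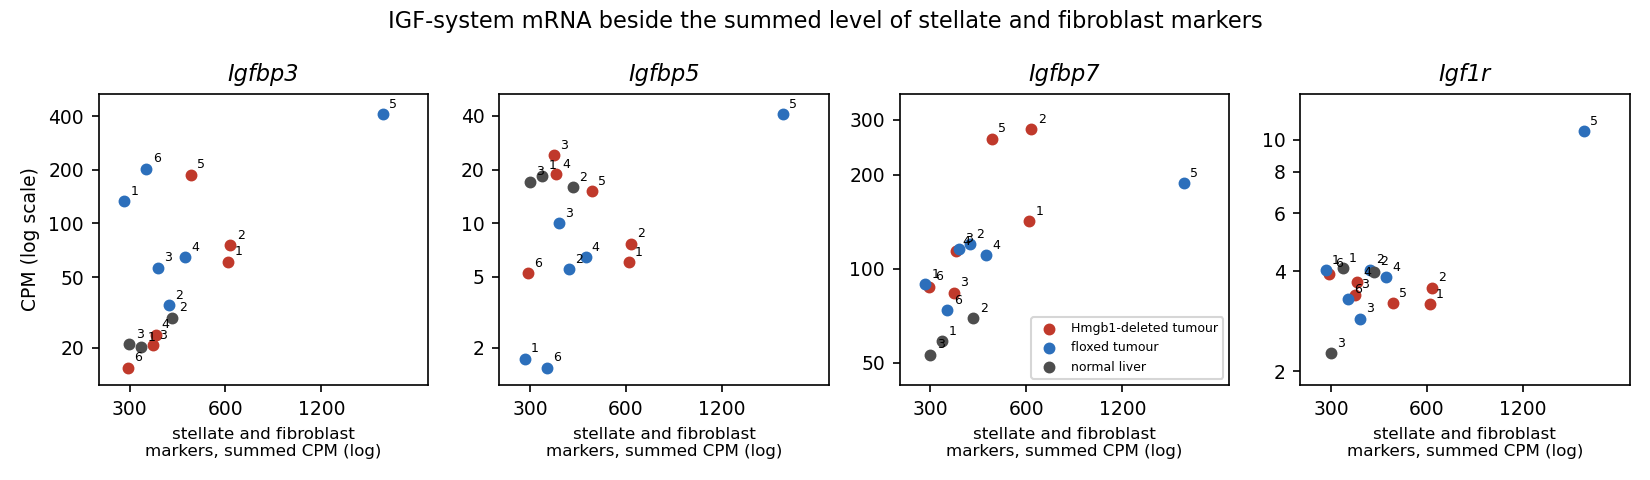
Levels of Igfbp3, Igfbp5, Igfbp7 and Igf1r (CPM, log axis) against the summed CPM of 12 stellate cell and fibroblast markers (log axis) in the 15 libraries, numbered within groups. Floxed tumour 5 stands apart at a marker sum of 1869.8 CPM and is the highest library for Igfbp3, Igfbp5 and Igf1r.

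The plot against stellate and fibroblast markers shows that the deleted tumours with the most Igfbp7 (2 and 5, with marker sums of 622 and 468 CPM) lay well below the marker sum of floxed tumour 5. Both lay above the sums of the other floxed tumours (289 to 448 CPM) and of the normal livers (299.9 to 409 CPM). Deleted tumour 1 had a sum of 613 CPM with Igfbp7 at 142 CPM. Deleted tumours 3, 4 and 6 had sums of 356, 362 and 296 CPM with Igfbp7 at 83.8, 114 and 87.6 CPM. The part of stellate and fibroblast RNA in the Igfbp7 levels of the deleted tumours was not tested.

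The ligands and other genes of the pathway were followed through 8 lists with 65 genes. Of the 53 tested between tumour groups, 4 were higher and 2 lower in Hmgb1-deleted tumours (11.3% called, against 7.78% of all genes). Of the 54 tested for floxed tumours against normal liver, 10 were higher and 27 lower (68.5%, against 48.7%). In Hmgb1-deleted tumours against normal liver, 55 were tested, of which 6 were higher and 18 lower (43.6%, against 34.7%). The median log2 fold change over the lists was 0.10 between tumour groups (0.02 over all genes), -0.45 in floxed tumours against normal liver (0.06) and -0.29 in Hmgb1-deleted tumours against normal liver (0.05).

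Igf1, the main circulating ligand, had lowest, median and highest levels of 282, 333 and 624 CPM in Hmgb1-deleted tumours and 68.1, 129 and 185 CPM in floxed tumours, and normal livers were at 669, 782 and 731 CPM. As for Igfals, the 3 groups did not overlap and the deleted tumours lay in between. Hmgb1-deleted tumours were higher than floxed tumours by 1.52 ± 0.26 (adjusted p = 0.00665). Floxed tumours lay below normal liver by -2.45 ± 0.26 (adjusted p = 5.57e-05) and Hmgb1-deleted tumours by -0.94 ± 0.26 (adjusted p = 0.02), the last of which missed the threshold without any 1 of the normal livers (adjusted p = 0.0627, 0.0851 and 0.0634). Igf2, the fetal ligand, was scarce at 0.323 to 5.21 CPM in Hmgb1-deleted tumours, 0.636 to 5.97 CPM in floxed tumours and 0.345 to 0.448 CPM in normal livers. It rose in floxed tumours against normal liver (2.70 ± 0.84, adjusted p = 0.0225), a call that ended without any 1 normal liver (adjusted p = 0.0744, 0.0687 and 0.0758). The insulin genes Ins1 and Ins2 did not pass the filter.

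In the growth hormone list of 6 genes, 2 rose between tumour groups (Ghr and the feedback inhibitor Cish) and 0 fell, 3 fell in floxed tumours against normal liver, and 3 fell in Hmgb1-deleted tumours against normal liver. Over all tested genes, 4.45% rose between tumour groups. Against normal liver, 23.8% fell in floxed and 16.6% in Hmgb1-deleted tumours. Ghr, the growth hormone receptor, averaged 282 CPM ± 138 in Hmgb1-deleted tumours (SD, n = 6), 104 CPM ± 15.4 in floxed tumours (SD, n = 6) and 823 CPM ± 84.8 in normal livers (SD, n = 3), with log2 differences of 1.46 ± 0.28 between tumour groups (adjusted p = 0.0101), -2.98 ± 0.17 in floxed tumours against normal liver (adjusted p = 1.53e-06) and -1.54 ± 0.36 in Hmgb1-deleted tumours against normal liver (adjusted p = 0.0121). Stat5b, the signal transducer behind Igf1 and Igfals, averaged 42.7 CPM in both tumour groups and 112 CPM in normal livers, and fell against normal liver in both (-1.37 ± 0.13, adjusted p = 0.000556, in Hmgb1-deleted and -1.38 ± 0.14, adjusted p = 4.5e-05, in floxed tumours). Stat5a fell as well, by -0.63 ± 0.15 in Hmgb1-deleted tumours (adjusted p = 0.0124) and -1.08 ± 0.18 in floxed tumours (adjusted p = 0.000897). The Stat5a call in Hmgb1-deleted tumours ended without normal liver 1 (adjusted p = 0.0844) or 2 (adjusted p = 0.0553), and it held under 17 of 22 alternatives.

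Below the receptor, 18 of 20 listed adaptors and signalling genes were tested, and 13 fell and 2 rose (the adaptors Grb10 and Shc1) in floxed tumours against normal liver. In Hmgb1-deleted tumours against normal liver, 10 fell and 1 rose (Grb10), and between tumour groups 1 fell (Shc1). Of all tested genes, 23.8% fell and 24.9% rose in floxed tumours against normal liver. In Hmgb1-deleted tumours against normal liver 16.6% fell and 18.1% rose, and between tumour groups 3.33% fell. Foxo3, a transcription factor that AKT inactivates, averaged 3.97 CPM in Hmgb1-deleted tumours, 3.6 CPM in floxed tumours and 16.2 CPM in normal livers, a fall against normal liver of -2.03 ± 0.28 (adjusted p = 0.00176) in Hmgb1-deleted and -2.16 ± 0.34 (adjusted p = 0.000625) in floxed tumours. Pdpk1, the kinase that activates AKT, fell by -0.94 ± 0.15 (adjusted p = 0.00289) in Hmgb1-deleted and -0.85 ± 0.13 (adjusted p = 0.000493) in floxed tumours, both against normal liver. Of the other receptors, Igf2r, which clears IGF2, fell in Hmgb1-deleted tumours against normal liver (-0.58 ± 0.20, adjusted p = 0.046), a call kept by only 9 of 22 alternatives. The insulin receptor Insr passed in no comparison. Insrr, an insulin receptor relative, passed as higher in floxed tumours than in normal liver (adjusted p = 0.046), on no more than 14 counts in any library. That call held under 7 of 12 alternatives, and the rest of the 19 used for other genes gave no value for Insrr. No fold is given for Insrr, since the normal livers held at most 1 count each.

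Among 10 insulin- and FOXO1-controlled liver genes, 9 fell and 0 rose in floxed tumours against normal liver, the group in which Igfbp1 was highest. The examples G6pc, which releases glucose from its phosphate, and Pdk4, which restrains pyruvate oxidation, fell by -3.96 ± 0.66 (adjusted p = 0.00086) and -1.88 ± 0.38 (adjusted p = 0.0023). The G6pc difference was -3.15 (adjusted p = 0.00561) without normal liver 2, which was at 2035 CPM where the other normal livers were at 1013 and 231 CPM. In Hmgb1-deleted tumours against normal liver 3 of the 10 fell (Pdk4, Ppargc1a and Tat) and 0 rose. Among all tested genes, 23.8% fell in floxed and 16.6% in Hmgb1-deleted tumours against normal liver.

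Of the IGFBP-related proteins, 4 of 6 tested rose in floxed tumours against normal liver and 3 of 7 in Hmgb1-deleted tumours (Ctgf, Esm1 and Wisp2 in both, and Kazald1 in floxed tumours). The share of all tested genes that rose was 24.9% in floxed and 18.1% in Hmgb1-deleted tumours. Cish, Grb10, Shc1, Ppargc1a, Tat, Wisp2 and Adam12 were named after their values were seen. Kazald1, a secreted protein with an IGFBP domain, had lowest, median and highest levels of 0.56, 1.36 and 6.81 CPM in Hmgb1-deleted tumours and 10.9, 17.9 and 33.7 CPM in floxed tumours, and normal livers were at 1.1, 1.43 and 1.92 CPM. The floxed tumours stood above both other groups without overlap, as they did for Igfbp1. Kazald1 was lower in Hmgb1-deleted than in floxed tumours (-2.95 ± 0.55, adjusted p = 0.00861) and higher in floxed tumours than in normal liver (3.65 ± 0.42, adjusted p = 8.54e-05). The difference between tumour groups was -3.64 without Hmgb1-deleted tumour 6 (adjusted p = 0.00229). Esm1, an endothelial proteoglycan, rose against normal liver in Hmgb1-deleted tumours (3.92 ± 0.53, adjusted p = 0.00161) and in floxed tumours (5.79 ± 1.12, adjusted p = 0.002; 4.56 without floxed tumour 5, which was at 231 CPM), and so did Ctgf, a matrix-associated growth regulator (3.48 ± 1.07, adjusted p = 0.0321, in Hmgb1-deleted and 3.21 ± 0.57, adjusted p = 0.00124, in floxed tumours). The Ctgf call in Hmgb1-deleted tumours ended without any 1 normal liver (adjusted p = 0.118, 0.0765 and 0.103). Its highest level was in tumour 5, at 147 CPM against 7.53 to 52.5 CPM in the other deleted tumours, and the difference was 2.54 without that tumour (adjusted p = 0.0253) and 1.91 without tumours 2 and 5 (adjusted p = 0.0212).

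Of the proteases that cleave IGF-binding proteins and their inhibitors, 2 rose and 1 fell among 7 tested in floxed tumours against normal liver, 2 rose among 8 in Hmgb1-deleted tumours (Stc1 and Adam12), and 0 of 7 passed between tumour groups. Against normal liver, 24.9% of all tested genes rose and 23.8% fell in floxed tumours, and 18.1% rose in Hmgb1-deleted tumours. Between tumour groups 7.78% of all tested genes passed. Stc1, a secreted inhibitor of PAPPA, was at 0.592 to 11.6 CPM in Hmgb1-deleted tumours, 1.82 to 44.4 CPM in floxed tumours and at most 2 counts in each normal liver, and it passed against normal liver in both tumour groups (adjusted p = 0.0114 in Hmgb1-deleted and 0.00245 in floxed tumours). In Hmgb1-deleted tumours that call ended without normal liver 1 (adjusted p = 0.0532) or 2 (adjusted p = 0.0529). No fold is given for it because the normal livers lay under the level that counting error allows for 0 counts. Its highest level was again in floxed tumour 5. Adam9, a membrane protease, fell in floxed tumours (-0.71 ± 0.12, adjusted p = 0.00111), and the protease Prss23 rose (1.37 ± 0.35, adjusted p = 0.00952). None of the IGF2 mRNA-binding proteins Igf2bp2 and Igf2bp3 passed in any comparison.

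For each of the 5 genes that passed somewhere, the genes with the most like pattern over the 15 libraries were found by the root mean square difference of centred log2 CPM among 11458 genes. This is a description of these libraries, which share their groups. Nearest to Igfals were Slco2b1, an organic anion transporter (0.29), Cml2 (0.31) and Hacl1, a peroxisomal lyase (0.31), where Igfals itself varied with an SD of 1.44. Nearest to Igfbp7 were Pacs1, Krtcap3 and Fhod1 (0.26 each, SD 0.69). For the other genes the nearest were Sgsm1 (0.69), Thsd4 and Tnfsf13 (0.74 each) for Igfbp1 with an SD of 1.83, Emcn (0.73), an endothelial sialomucin, with Tuba1a and Gpr137b (0.74 each) for Igfbp3 with an SD of 1.39, and the acute phase protein gene Serpina3n (0.87) with Mlph (0.89) and Lrg1 (0.90) for Igfbp6 with an SD of 1.48.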

How the data were processed

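Poly-A RNA of 12 mouse liver tumours and 3 normal livers was sequenced from TruSeq libraries (source: the labels' protocols). The values that the authors deposited per gene symbol were taken to be raw counts of reads. The submitters' processing notes name HTSeq 0.6.1, Bowtie2 2.2.4, TopHat2 2.1.0 and bcl2fastq 1.8.4, and the build mm9. Settings, annotation and strand use are not given in the sources, so reads from a gene and an overlapping antisense gene may not be separated.

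Groups came from the labels. In R 4.3.3, genes were filtered with filterByExpr, scaled with TMM and tested with edgeR 4.0.16's quasi-likelihood F test (robust, 2 groups per fit, group as the only term). P-values were adjusted over all tested genes by the Benjamini-Hochberg method, with 0.05 as the threshold and no fold threshold. CPM uses TMM factors over all 15 libraries, and standard errors come from the F statistic. Within groups, chi-square over degrees of freedom for 2 libraries was never below 27.9, so none was deposited again as another. Code was tested on simulated data. Transcript lengths (longest principal coding transcript), neighbours and promoter windows come from tables of GRCm38.p6 and were matched by symbol.

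All 9 genes are named in each comparison. From each pathway list up to 3 genes with the smallest p over the comparisons are named, and for each of the 9 genes that passed somewhere the 3 genes most like it, among genes with a mean log2 CPM of at least 1. Results of 2 genes that this rule names are not reported here. The genes, lists, alternatives and left-out libraries were chosen with earlier results of these data known. Alternatives were RLE and upper-quartile scaling, library totals without a factor, no filter, a filter of 1 CPM, DESeq2 1.42.0, voom with sample weights (limma 3.58.1), all 15 samples in 1 fit, the number in the labels as a block, and left-out libraries. The split of calls by scaling and the log2 scale for libraries that lie apart were added after seeing the data.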

Additional observations from a re-analysis of the deposited data

Results flagged for a closer look

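In 4 of 18 groups of 6 tumours (9 genes in each tumour group), 1 library lay far from the others by Dixon's test on CPM, where chance gives about 1 in 20 for values with a normal distribution. Levels are skewed on that scale, and on log2 CPM, a scale added after seeing the data, only 1 library lay apart, floxed tumour 5 for Igf1r. The gap to the nearest library over the range of the group was 0.743 there on log2 CPM, above the critical value of 0.625, against 0.439 for Igfbp2, 0.366 for Igfbp3 and 0.436 for Igfbp5. Igfbp2 was at 1161 CPM in floxed tumour 1, against 156 to 481 CPM in the other floxed tumours. Igfbp3 was at 188 CPM in Hmgb1-deleted tumour 5, against 15.5 to 75.7 CPM in the other Hmgb1-deleted tumours. Igfbp5 was at 41.1 CPM in floxed tumour 5, against 1.55 to 10 CPM in the other floxed tumours. Igf1r was at 10.6 CPM in the same tumour, against 2.88 to 4.05 CPM. That tumour also held the highest summed stellate and fibroblast markers, 1869.8 CPM against 289 to 448 CPM, and their part in the Igfbp5 and Igf1r levels was not tested.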

How the results depend on the processing

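The 27 values of the 9 genes in 3 comparisons were refitted under 19 to 24 alternatives each. In Hmgb1-deleted against floxed tumours, 202 of these kept direction and call, 2 lost a call, 2 gained one and 10 turned the direction of a difference that had not passed. In floxed tumours against normal liver the counts were 146, 9, 6 and 10, and in Hmgb1-deleted tumours against normal liver 183, 3, 8 and 4. The lost and gained calls stand beside the genes above, apart from these: with the replicate block Igfbp3 missed the threshold in floxed tumours against normal liver (1.46, adjusted p = 0.0637), Igfbp5 passed there (-1.81, adjusted p = 0.0375), as it did in libraries 1 to 3 without the block (-1.58, adjusted p = 0.0388), and Igfbp2 passed in Hmgb1-deleted tumours against normal liver (-2.23, adjusted p = 0.0189). Without Hmgb1-deleted tumours 3 and 4, Igfbp2 (-2.89, adjusted p = 0.0197) and Igfbp4 (-0.79, adjusted p = 0.0238) passed against normal liver. The tumours left out there held the highest levels of both genes in the deleted group. Voom called Igfbp4 in floxed tumours (-0.41, adjusted p = 0.0361). The cause was not tested.

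Directions turned only where the value lay near 0 or had not passed. Between tumour groups, Igfbp4 and Igfbp5 were at -0.44 and -0.22 without Hmgb1-deleted tumours 3, 4 and 6 and at -0.29 and -0.40 without 3 and 4, and Igfbp7 at -0.13 without 2 and 5. With 1 library left out, Igfbp4 ran from -0.09 to 0.18 and Igfbp5 from -0.04 to 1.36. In floxed tumours against normal liver, Igfbp2 was at 0.17 with upper-quartile scaling, 0.09 with library totals, 0.01 with the 1 CPM filter, 0.22 with voom, 0.69 with the replicate block, 0.64 in libraries 1 to 3 without the block, and from -0.53 to 0.57 with 1 library left out. In Hmgb1-deleted tumours against normal liver, Igf1r was at -0.10 with voom, -0.02 without tumours 3, 4 and 6 and from -0.19 to 0.17 with 1 library left out, and Igfbp1 at -0.13 without tumours 3, 4 and 6.

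Genes called between tumour groups numbered 1045, but 1954 with DESeq2, 1629 in the fit of all 15 samples, 422 without Hmgb1-deleted tumours 3 and 4, and 589 to 1054 with 1 library left out (589 without Hmgb1-deleted tumour 4). In Hmgb1-deleted tumours against normal liver they numbered 4787, but 3055 with the replicate block and 2113 to 4912 with 1 library left out (2113, 2227 and 3109 without normal livers 1, 2 and 3). Of the 9 genes, 1 was called between tumour groups without Hmgb1-deleted tumours 3 and 4, and 1 to 2 with 1 library left out. In floxed tumours against normal liver 2 to 6 were called with 1 library left out, beside 4860 to 6966 over all genes (6714 as reported). In Hmgb1-deleted tumours against normal liver 1 to 3 were called with 1 library left out. There, 5 were called without tumours 3, 4 and 6, beside 6462 over all genes, and 4 without 3 and 4, beside 5629. Calls over all genes rose as well in those 2 settings.

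Deviations from the group mean were correlated between libraries with the same number, at -0.204 to 0.18 over 6 pairs between tumour groups. Against normal liver the correlations were -0.0556 to 0.12 over 3 pairs for floxed tumours and 0.0251 to 0.136 over 3 pairs for Hmgb1-deleted tumours. Between tumour groups, libraries with unlike numbers ran from -0.254 to 0.302. So few pairs cannot settle whether the numbers mark pairs, and they were not taken as pairs. With 3 normal livers, leaving 1 out leaves fewer samples to estimate the spread, and Igfbp6 in 1 tumour rested on 4 counts.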
